A study of Mus musculus with 8 samples.

Results

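The proteasome genes described here are the 53 probe sets, of 12488 on the array, whose single annotated symbol begins with Psma, Psmb, Psmc, Psmd or Psme. They stood for 42 genes, of 8251 with a single symbol. Of these, 40 genes (51 probe sets) encode subunits, activators or assembly factors of the proteasome. The remaining members, Psmc3ip and Psme3ip1, carry a subunit's name because their products bind that subunit, and they are given apart. A probe set is a group of short oligonucleotides that together report on a transcript, and 7 of the genes had several. Another 2 probe sets carried several symbols of which one began with Psme, and they were left out.

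RNA came from neurosphere cultures, floating aggregates of neural stem and progenitor cells, grown from mouse forebrains taken individually at embryonic day 14.5. All 4 groups carried a bcl2 transgene, and the labels do not name its promoter. Cells were left untreated or were cultured for 2 days with 500 nM AzaC (5-aza-2'-deoxycytidine, which inhibits DNA methyltransferases), with 150 nM TSA (trichostatin A, which inhibits histone deacetylases), or with the combination (AzaC/TSA). Each group had 2 arrays, numbered 1 and 2 after the independent experiment they came from, and p-values measure only the spread between these arrays.

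The proteasome degrades proteins marked with ubiquitin. Its 20S core is a stack of rings: alpha subunits (Psma genes) form the gate, and beta subunits (Psmb genes) form the chamber, in which Psmb6, Psmb7 and Psmb5 supply the constitutive catalytic sites. In immune cells, or after interferon, Psmb9, Psmb10 and Psmb8 replace them to form the immunoproteasome, which is known for generating peptides for MHC class I. The 19S cap unfolds substrates with a ring of ATPases (Psmc genes) and recognises ubiquitin through non-ATPase subunits (Psmd genes). PA28 (Psme1 with its partner, and Psme3 in the nucleus) and PA200 (Psme4) are other activators of the core.

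Signals are the deposited linear intensities, scaled to a common trimmed mean of 200.1 on every array. Values under a floor of 20 were raised to it before the log2 step. A probe set was tested if at least 2 of the 8 arrays reached a signal of 50, which 47 of the 53 members did (39 genes). Of these, 41 reached it on all 8 arrays, with signals from 54.9 to 4962.5. The members that were not tested were Psmb8 (102791_at, 6.8 to 47.6) and 5 dim probe sets of Psme1, Psmb1, Psmb4, Psmc4 and Psmd2. For Psmb8, Psmd2 and Psmc4 no other probe set was tested. Array medians ran from 59.2 to 72.7. The 5' to 3' ratio of actin control signals, a sign of RNA integrity, ran from 0.290 to 0.390 on the TSA-exposed arrays and from 0.332 to 0.471 on the others, and its part in the results was not tested.

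The main comparison asked how these transcripts differed after histone deacetylase inhibition, with the 4 TSA-exposed arrays (TSA and AzaC/TSA) set against the 4 others. The activator gene Psme4 rose 2.79-fold and the immunoproteasome gene Psmb10 fell 3.05-fold, whereas the constitutive catalytic genes Psmb5, Psmb6 and Psmb7 did not pass the test. Psme1, Psmb1 and Psmb2 rose by 1.60- to 1.65-fold, and Psmc3 fell. In all, limma called 8 of 47 member probe sets (17.0%) at an adjusted p of 0.05, 4 higher and 4 lower, against 14.5% of the 7987 probe sets tested (6.95% higher and 7.56% lower). Without Psmc3ip and Psme3ip1 it was 7 of 45 (15.6%). Both shares were near that background, so neither count is a result about proteasome genes as a group. Their median log2 change was -0.06, against -0.03 over all probe sets tested.

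With the experiment as a replicate block, 14 members were called (8 higher and 6 lower), against 23.9% of all probe sets. Without the block, single arrays weighed on the count of 8. It was 3 without untreated 2, TSA 1 or TSA 2, 4 without untreated 1 or AzaC/TSA 2, and 5 without AzaC 1, AzaC 2 or AzaC/TSA 1.

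**Figure D1:**
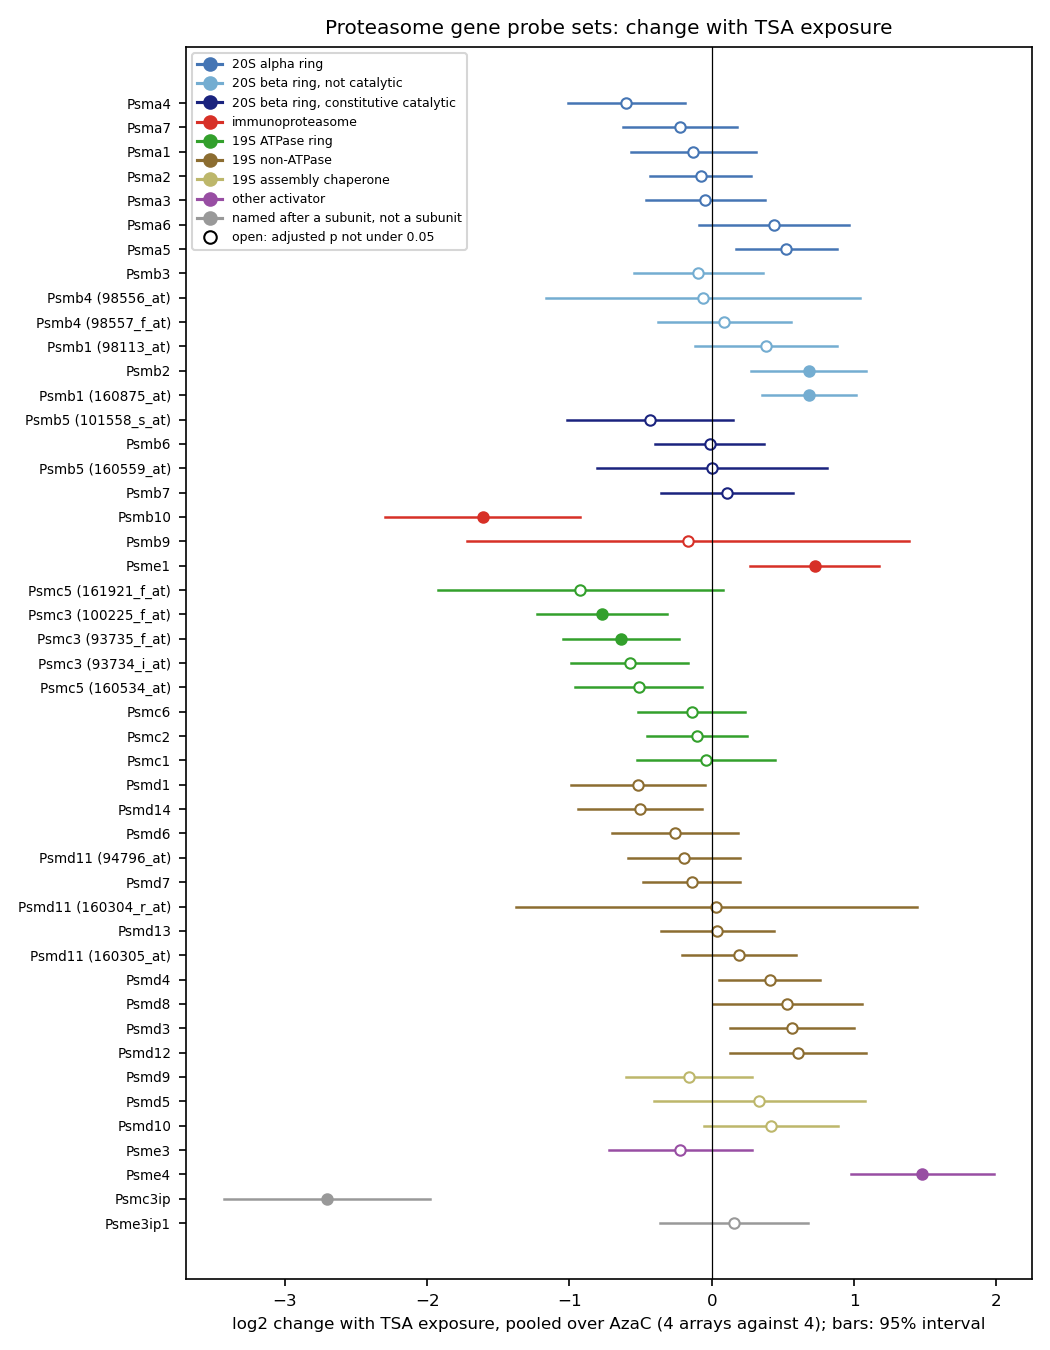
Each point is the log2 change of a member probe set with TSA exposure, pooled over AzaC (4 arrays against 4), and each bar its 95% interval from limma; colours mark the role of the subunit and filled points have an adjusted p under 0.05. Psme4 (1.48) stands at the right and Psmb10 (-1.61) and Psmc3ip (-2.70) at the left, while all 8 ATPase probe sets lie below 0.

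The promoters of the immunoproteasome and activator genes that passed are shown because their transcripts changed in different directions under the same inhibitor. Sequences are the 250 bases before each RefSeq start (build GRCm38.p6), 5' to 3' on the strand of the gene, with motif matches in capitals.
Psmb10, chr8:105938393-105938642, minus strand: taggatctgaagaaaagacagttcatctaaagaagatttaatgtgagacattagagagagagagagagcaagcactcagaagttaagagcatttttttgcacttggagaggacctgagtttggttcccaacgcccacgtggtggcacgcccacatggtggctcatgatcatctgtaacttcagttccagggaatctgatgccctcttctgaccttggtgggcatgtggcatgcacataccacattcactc
Psme1, chr14:55578244-55578493, plus strand: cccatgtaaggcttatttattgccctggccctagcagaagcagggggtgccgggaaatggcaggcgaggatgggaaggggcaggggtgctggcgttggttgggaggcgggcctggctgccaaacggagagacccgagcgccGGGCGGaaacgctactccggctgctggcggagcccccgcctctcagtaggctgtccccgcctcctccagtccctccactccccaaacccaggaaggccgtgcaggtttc
Psme4, chr11:30771525-30771774, plus strand: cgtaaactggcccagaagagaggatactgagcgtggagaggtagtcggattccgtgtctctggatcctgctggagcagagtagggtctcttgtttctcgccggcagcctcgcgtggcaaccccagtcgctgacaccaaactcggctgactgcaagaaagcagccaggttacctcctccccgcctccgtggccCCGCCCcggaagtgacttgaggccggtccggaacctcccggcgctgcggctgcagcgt
The letters searched, on either strand, were CCAAT for the box of that name, GGGCGG for the GC box, TGACNNNGC for the antioxidant response element core, TTCNNNGAA for the gamma-activated sequence, TTTGGCGC for the E2F core and TGACGTCA for the cyclic AMP response element, and the interferon-stimulated response element was searched as GAAA repeated after any 2 bases. Matches of different motifs could overlap. The Psme1 and Psme4 windows each held 1 GC box, and the Psmb10 window held none of the motifs. Of the 40 subunit genes, 34 had a window in the RefSeq table. The first listed window of each gene was counted, and the background held all genes of that table, on the array or not. The shares are therefore not read as a trait of proteasome genes. The GC box lay in 20 of them (58.8%), against 32.9% of all 27025 windows, and the CCAAT box in 13 (38.2%), against 34.5%. The antioxidant core lay in 5 (14.7%, against 10.1%), the interferon element in 3 (Psmd4, Psmd9 and Psmb3; 8.82%, against 3.04%) and the gamma-activated sequence in Psmb8 alone (2.94%, against 7.18%). A match is a run of letters and not a measured site.

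Psmb10 encodes the inducible catalytic subunit that takes the place of Psmb7. Its signal was 297.5 and 276.6 in untreated cells, 275.1 and 299.3 with AzaC, 90.3 and 116.5 with TSA, and 54.9 and 134.9 with AzaC/TSA. All 4 TSA-exposed arrays lay below all 4 others, and AzaC/TSA 1 was the lowest. The log2 change was -1.61 (SE 0.30, 95% interval -2.30 to -0.92, n = 4 arrays on each side, limma adjusted p = 0.00981), and 4 of 4 pairs fell. It kept its call in 17 of 18 alternatives and lost it when no filter was applied (adjusted p = 0.0612).

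Psmb7 showed no such fall. Its signal was 1254.7 and 1385.2 in untreated cells, 1285.1 and 1604.4 with AzaC, 1324.7 and 1484.0 with TSA, and 1195.8 and 2035.4 with AzaC/TSA. The groups overlapped, and the log2 change with TSA was 0.10 (95% interval -0.36 to 0.57).

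The contrast within this pair was taken on each array as the log2 signal of Psmb10 minus that of Psmb7. The difference was -3.98 ± 0.33 on the TSA-exposed arrays and -2.26 ± 0.15 on the others (SD, n = 4 each), a change of -1.71. An exact two-sided permutation test over the 70 arrangements gave p = 0.0286, the smallest it can give. Over the 3 pairs, 4 such tests were run, and with Benjamini-Hochberg adjustment over the 4 the exact test gave p = 0.114, which does not pass. Permuted only within experiment and AzaC status, the exact test could not go below 0.125, which it gave. For AzaC the same difference changed by -0.27 (exact permutation p = 0.571). Permuted only within experiment and TSA status, the exact test for AzaC also gave 0.125, its smallest value, so this form does not set TSA apart from AzaC.

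Psmb9, which takes the place of Psmb6, was near the floor. It read 5.3 and 114.9 in untreated cells, 15.1 and 72.8 with AzaC, 14.8 and 32.4 with TSA, and 32.1 and 101.2 with AzaC/TSA. In each group the array of experiment 2 was the higher, and the TSA-exposed arrays overlapped the others. The log2 change with TSA was -0.17 with a 95% interval of -1.72 to 1.39, so a change of either sign was not detectable at this signal. Psmb6 read 1025.4 and 846.9 in untreated cells, 1581.6 and 1346.8 with AzaC, 1024.8 and 1138.6 with TSA, and 1117.5 and 1365.6 with AzaC/TSA, with a log2 change with TSA of -0.01 (95% interval -0.40 to 0.37). The difference Psmb9 minus Psmb6 changed by -0.15 with TSA (exact permutation p = 0.914) and by 0.00 with AzaC (exact permutation p = 1), and it turned positive with a floor of 2.5% of the trimmed mean or an offset in its place, but not with a floor of 20%.

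Psmb8, the counterpart of Psmb5, read 6.8 and 14.1 in untreated cells, 47.6 and 38.1 with AzaC, 11.1 and 37.1 with TSA, and 46.5 and 28.5 with AzaC/TSA. No array reached the filter signal, so it was not tested. Its brightest counterpart, Psmb5 (101558_s_at), read 597.1 and 1144.6 in untreated cells, 483.8 and 772.6 with AzaC, 487.6 and 588.1 with TSA, and 471.4 and 571.1 with AzaC/TSA. The untreated array of experiment 2 stood highest, and each untreated array lay above every TSA-exposed array. The TSA-exposed arrays overlapped those without TSA only through the lower AzaC array (483.8). The log2 change with TSA was -0.43 (95% interval -1.01 to 0.15). A dimmer Psmb5 probe set (160559_at) gave 0.00. The difference Psmb8 minus Psmb5 changed by 0.54 with TSA and by 0.99 with AzaC, values given without a test.

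Psme1, the PA28 alpha subunit, changed in the other direction from Psmb10. Its signal (101510_at) was 233.5 and 233.2 in untreated cells, 202.6 and 302.0 with AzaC, 471.4 and 434.4 with TSA, and 352.1 and 345.2 with AzaC/TSA. The TSA-exposed arrays all stood above the others, with the TSA group highest. The log2 change was 0.73 (SE 0.20, n = 4 arrays on each side, limma adjusted p = 0.0426, higher in 4 of 4 pairs), and the call held in 8 of 18 alternatives; of the arrays, only AzaC 2 could be left out without losing it. The activator gene Psme1 was counted here with the immunoproteasome genes Psmb9 and Psmb10. Of these 3 tested probe sets 2 passed, Psmb10 lower and Psme1 higher. Of the 42 constitutive ones 5 passed (11.9%, 3 higher and 2 lower, median -0.05), against 14.5% of all probe sets. The difference between these shares was not tested, and 3 probe sets are too few to read one.

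**Figure D2:**
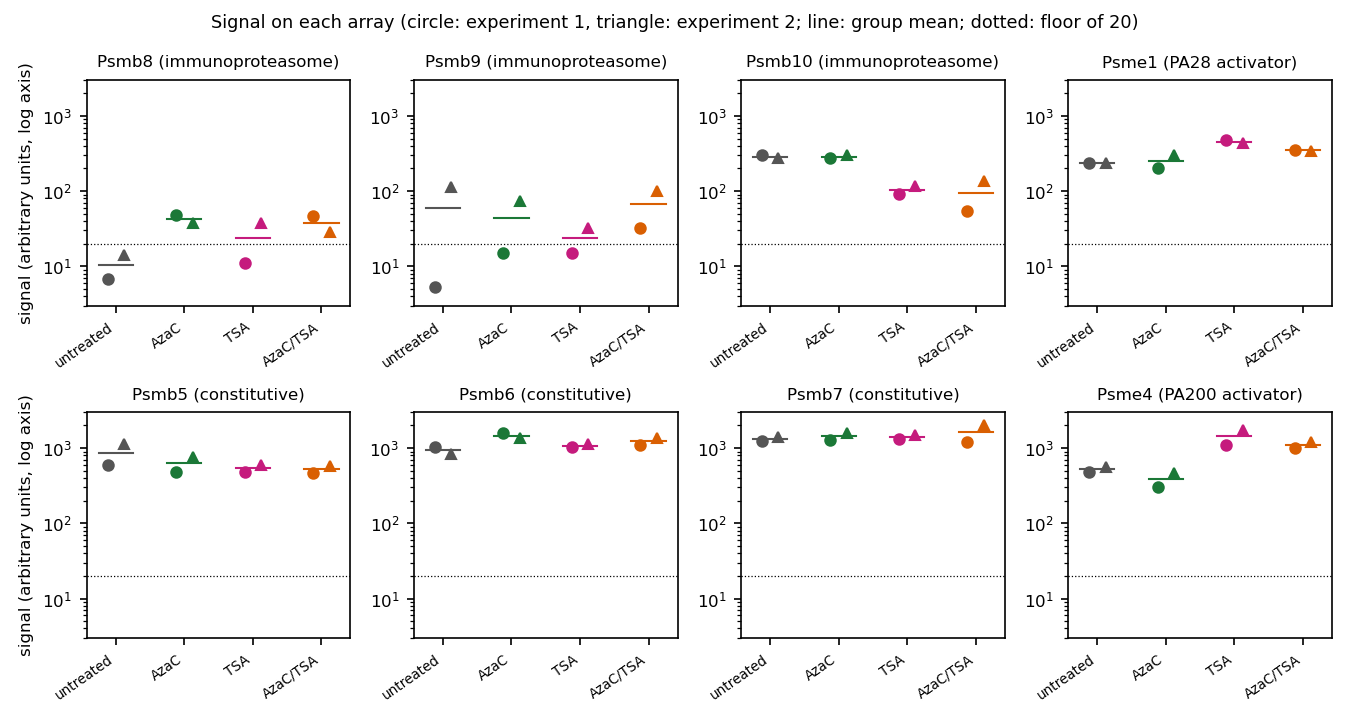
Signal of 8 members on each array, in arbitrary units on a log axis, by treatment group; circles are experiment 1, triangles experiment 2, horizontal lines the mean of the 2 arrays and the dotted line the floor of 20. Psmb10 lies between 54.9 and 134.9 on the TSA-exposed arrays and between 275.1 and 299.3 on the others, and Psme4 shows the opposite order. For Psmb5, Psmb6 and Psmb7 the TSA-exposed arrays overlap the others.

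Immunoproteasome genes are abundant in blood-derived cells, so markers of such cells were read on the same arrays. Of 11 microglia and macrophage markers, 5 were tested and 1 rose with TSA. This was Cd68, a lysosomal protein of macrophages, which read 30 to 53 on the arrays without TSA and 166.9 to 474.1 with it. The other tested markers, Csf1r (-0.90), Cx3cr1 (-0.53), Fcgr3 (-0.51) and Cd14 (-0.27), had log2 changes below 0 and did not pass. Aif1, Itgam, Tyrobp, Adgre1 and Ctss, and the blood cell markers Ptprc and Cd3e, were under the filter signal on every array. Of 6 blood cell markers named, 3 were tested. Hba-a1 (log2 change 0.28), Cd34 (0.69) and Kit (-0.63) differed in direction and did not pass. The summed signal of the 11 microglia and macrophage markers, Cd68 among them, was 388.4 to 659.9 without TSA and 398.1 to 823.1 with it, which overlap. Of 7 tested neural stem and progenitor markers, Fabp7 fell and 0 rose. With the replicate block Pax6 also fell (-1.08, limma adjusted p = 0.0207, and 0.0653 without the block), against 23.9% of all probe sets called. The summed signal of the 9 markers named was 15165.2 to 17779.7 on arrays without TSA and 6383.7 to 14019.4 with it. Fabp7 carried this separation (7830.1 to 10920.1 and 1062.9 to 5499.4): the sum of the other 8 was 6848.3 to 7335.1 without TSA and 5320.8 to 8520 with it, which overlap. Of 5 neuronal markers, Snap25 and Syp rose and Tubb3 fell. The part of these shifts in the proteasome results was not tested, and in bulk RNA fewer cells of a type and less RNA per cell cannot be told apart.

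Among the activators that are not part of the immunoproteasome, Psme4 gave the largest rise of any member. PA200, its product, is a nuclear activator known to act on acetylated histones. Psme4 read 485.4 and 556.6 in untreated cells, 305.6 and 466.3 with AzaC, 1117.4 and 1758.0 with TSA, and 999.1 and 1190.5 with AzaC/TSA. The lowest TSA-exposed array stood well above the highest of the others. The log2 change was 1.48 (SE 0.22, 95% interval 0.98 to 1.98, n = 4 arrays on each side, limma adjusted p = 0.00364), and the call held in 18 of 18 alternatives. Psme3, the nuclear PA28 gamma, gave -0.22 and did not pass (adjusted p = 0.553).

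In the non-catalytic part of the beta ring, 2 of 6 probe sets rose. Psmb1 (160875_at) read 1086.5 and 1127.8 in untreated cells, 1183.8 and 1199.4 with AzaC, 1853.3 and 1872.5 with TSA, and 1789.0 and 1872.2 with AzaC/TSA. The arrays of each group lay close together, and exposed and unexposed arrays did not overlap (log2 change 0.68, SE 0.15, limma adjusted p = 0.0164). The call was lost without untreated 2, TSA 1 or TSA 2. A further Psmb1 probe set (98113_at) read 984.1 and 1387.4, 917.2 and 1425.9, 1411.1 and 1604.5, and 1257.0 and 1812.0 in the same order of groups, overlapped, and did not pass (0.38, adjusted p = 0.288). Psmb2 read 650.7 and 604.5 in untreated cells, 626.3 and 659.2 with AzaC, 1140.3 and 1212.1 with TSA, and 727.7 and 1065.6 with AzaC/TSA. Its TSA-exposed arrays all exceeded the others, with AzaC/TSA 1 closest to them (log2 change 0.68, SE 0.18, limma adjusted p = 0.0367), and the call was kept without AzaC/TSA 1 but with no other array left out. Psmb3 gave -0.09, and the Psmb4 probe sets -0.06 and 0.09.

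None of the 7 alpha ring probe sets was called, against 14.5% of all, and the median change of the 7 was -0.08. An unadjusted p under 0.05 was found for 2 of them, against 2364 of all 7987 tested. Psma5 (0.52, adjusted p = 0.0558) and Psma4 (-0.60, adjusted p = 0.0585) were separated between exposed and unexposed arrays in opposite directions. With the replicate block these became calls (adjusted p = 0.0210 and 0.0213), as did Psma6 (0.44, adjusted p = 0.255 without the block and 0.0317 with it). The block called 23.9% of all probe sets.

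Psmc3, an ATPase of the 19S base, fell on 2 of its 3 probe sets. The brightest (93735_f_at) read 822.2 and 874.2 in untreated cells, 875.5 and 1179.7 with AzaC, 567.1 and 545.4 with TSA, and 569.2 and 718.7 with AzaC/TSA. The TSA-exposed arrays lay below the others without overlap (log2 change -0.64, SE 0.18, limma adjusted p = 0.0454). The probe set 100225_f_at read 261.2 and 338.7, 347.9 and 408.2, 186.8 and 209.5, and 177.6 and 212.1 in the same order, again without overlap (-0.77, SE 0.20, adjusted p = 0.0353). The third (93734_i_at) read 772.7 and 736.8, 610.5 and 768.6, 452.4 and 423.5, and 460.7 and 611.1, and overlapped by a narrow margin (-0.58, adjusted p = 0.0661, and 0.0279 with the block). The call of 93735_f_at was kept without AzaC 1 but with no other array left out, and that of 100225_f_at was lost without any 1 array. These probe sets report on the same gene and are not independent, and the f suffix marks probes that may match a family of related sequences.

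All 8 ATPase probe sets had changes below 0, as did 51.8% of all probe sets tested, and their median was -0.55. They stood for 5 genes, Psmc3 and Psmc5 with several probe sets each, and only the 2 of Psmc3 passed, against the 14.5% called over all. The other genes gave -0.51 (Psmc5, 160534_at, adjusted p = 0.116), -0.14 (Psmc6), -0.10 (Psmc2) and -0.04 (Psmc1). A dim Psmc5 probe set (161921_f_at) had the third lowest change of all members, -0.92, and did not pass (adjusted p = 0.206). It read 51.3 and 50.2 in untreated cells, 69.7 and 33.3 with AzaC, 4.9 and 49.2 with TSA, and 12.9 and 23.5 with AzaC/TSA, and only 3 arrays reached the filter signal.

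Of 12 probe sets for non-ATPase subunits, 0 were called, against 14.5% of all. An unadjusted p under 0.05 was found for 6 of them, against 2364 of all 7987 tested. Their changes ran from -0.52 (Psmd1) to 0.61 (Psmd12). Psmd12 and Psmd3, subunits of the 19S lid, passed with the block (0.61, adjusted p = 0.0187, and 0.56, adjusted p = 0.020), against 23.9% of all probe sets. Psmd3, Psmd4 (a ubiquitin receptor) and Psmd8 had all exposed arrays above the others. The probe sets of Psmd11 differed in direction (-0.20, 0.19 and 0.03). The 19S assembly chaperones Psmd5 (0.34), Psmd9 (-0.16) and Psmd10 (0.42) did not pass.

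Over all 47 tested members, the 4 exposed arrays were separated from the 4 others in 14 (29.8%), 9 above and 5 below, against 23.6% of all probe sets.

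Psmc3ip, a factor of meiotic recombination and not a subunit, gave the deepest fall. It read 137.1 and 130.0 in untreated cells, 116.9 and 189.7 with AzaC, 7.3 and 10.9 with TSA, and 4.9 and 27.4 with AzaC/TSA. Only the 4 arrays without TSA reached the filter signal, so it entered the test through the groups where it read high. With the 3 exposed arrays under the floor set to it, the fall was 6.51-fold, or -2.70 on the log2 scale (limma SE 0.32 and adjusted p = 0.00126). Its size depends on the floor and ran from -3.79 to -1.82 over the alternatives. The call held in 18 of 18 alternatives. Psme3ip1 gave 0.16 and did not pass.

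The TSA change was also read separately without and with AzaC, on arrays that the 2 readings do not share. Psmb10 gave -1.48 (TSA minus untreated) and -1.74 (AzaC/TSA minus AzaC), and Psme4 gave 1.43 and 1.53. Psme1 gave 0.96 and 0.50, and Psmb2 gave 0.91 and 0.45. The sign was the same for 36 of 47 members (76.6%), against 74.8% of all probe sets tested. None of these differences passed the test of the interaction between the compounds, which called 0 of 47 members and 0% of all probe sets, and 0 members with the block. An unadjusted p under 0.05 was found for 0 members, against 142 of all 7987 probe sets. The intervals were wide: -1.63 to 1.12 for Psmb10 and -1.37 to 0.45 for Psme1.

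**Figure D3:**
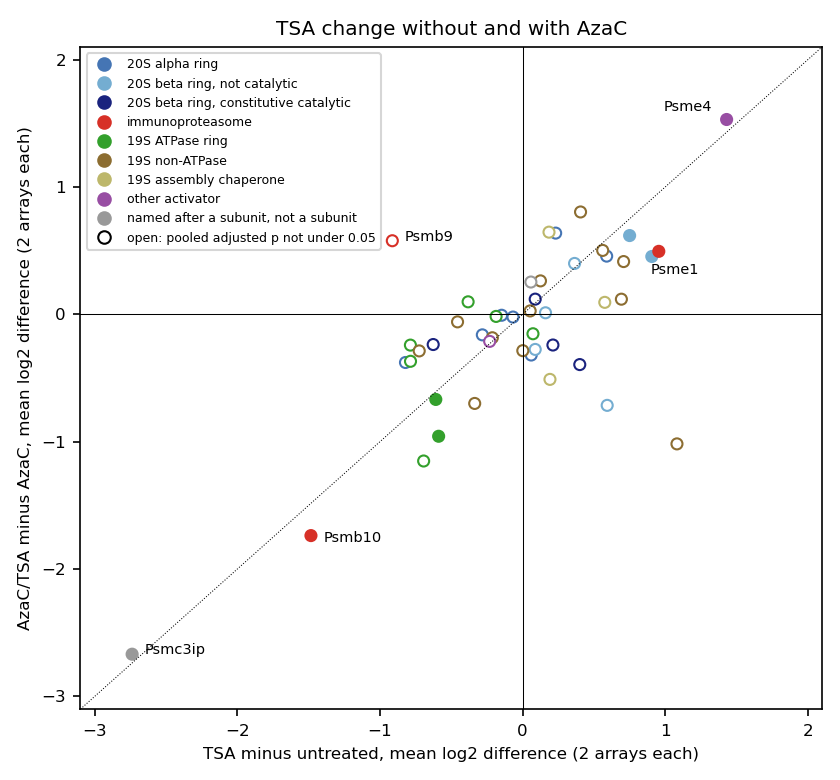
Mean log2 difference between TSA and untreated arrays (horizontal) and between AzaC/TSA and AzaC arrays (vertical), 2 arrays on each side, for the 47 tested members; the dotted line marks equal values and filled points passed in the pooled comparison. Psme4, Psmb10 and Psmc3ip lie close to the line, and Psmb9 changes sign (-0.91 and 0.58).

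Against untreated cells alone, with 2 arrays on each side, TSA gave 2 calls among the members (4.26%; 1 higher and 1 lower), against 5.02% of all probe sets (2.09% higher and 2.93% lower). These were Psme4 (1.43, SE 0.31, limma adjusted p = 0.0364) and Psmc3ip (-2.74, adjusted p = 0.0140). Psmc3ip is not a subunit and entered the test only through arrays without TSA. The count fell to 0 without either untreated array or either TSA array, and Psme4 was also lost without AzaC/TSA 2. With the replicate block it was 8, against 12.2% of all (5.6% higher and 6.56% lower): Psme1, Psme4, Psmb1, Psmb2 and Psmd4 rose, and Psmb10, Psma4 and Psmc3ip fell. Psmb10 had an adjusted p of 0.0889 without the block and 0.0289 with it.

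AzaC/TSA against the same untreated arrays gave 1 call, against 3.12% of all probe sets (1.29% higher and 1.83% lower). Of the 45 tested probe sets left without Psmc3ip and Psme3ip1, 0 were called. The 1 call was Psmc3ip (-2.51, limma adjusted p = 0.0222), which entered the test only through arrays without TSA. Its call was lost without either untreated array or either AzaC/TSA array; without AzaC/TSA 2 the 1 call was Psmb10 instead. With the block 4 were called, against 9.34% of all (4.38% higher and 4.96% lower): Psme4 (1.07) and Psmb1 (0.73) rose, and Psmb10 (-1.74) and Psmc3ip fell.

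AzaC alone gave no call. Against untreated cells and pooled over TSA, limma called 0 of 47 members and 0% of all probe sets, with or without the block. An unadjusted p under 0.05 was found for 1 member in each comparison, Psmb6 (log2 change 0.65 and 0.42), whose AzaC arrays both stood above both untreated arrays. Of all 7987 probe sets, 175 had one against untreated and 203 pooled over TSA. For Psmb10 the change against untreated was 0.00, with a 95% interval of -0.97 to 0.97.

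The last comparison set experiment 2 against experiment 1 within the 4 groups. Of the 47 members, 35 (74.5%) were higher in experiment 2, against 51.9% of all probe sets tested, with a median of 0.19 against 0.02. Over the alternatives, the members' median exceeded that of all probe sets by 0.110 to 0.175. In 15 of 47 (31.9%) experiment 2 was higher in all 4 groups, against 14.4% of all, and in 1 (2.13%, Psmd6) it was lower in all 4, against 13.6%. Few single members passed: limma called 1 (Psma6, higher), against 4.22% of all (1.58% higher and 2.64% lower). Psma6, of the alpha ring, read 2217.2 and 3418.3 in untreated cells, 1969.8 and 2789.9 with AzaC, 2584.3 and 4046.5 with TSA, and 3194.9 and 4167.1 with AzaC/TSA. Experiment 2 was higher in each group, by 0.54 on the log2 scale (SE 0.13, limma adjusted p = 0.0446), and the call was lost when any single array was left out.

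Psmb9 had the largest difference between the experiments among the members, 1.68 (SE 0.41), and did not pass (limma adjusted p = 0.0503). As 3 of its 4 arrays of experiment 1 were under the floor, its size depends on the floor, and it ran from 0.93 to 2.37 over the alternatives. Genes of the class I pathway, which uses immunoproteasome products, were measured on the same arrays. Of 9 tested antigen processing genes, 3 were higher in experiment 2: B2m (1.41, adjusted p = 0.0105), H2-D1 (1.74, adjusted p = 0.0368) and Tap1 (1.18, adjusted p = 0.0396). Tap1, the peptide transporter, read 71.4 and 225.7 in untreated cells, 88 and 288.9 with AzaC, 98.1 and 147.5 with TSA, and 117.5 and 197.9 with AzaC/TSA. As with Psmb9, every group was higher in experiment 2. Of 9 tested interferon signalling genes 0 were called between experiments, against 4.22% of all probe sets. Socs1, Gbp2, Ifit1, Ifit3 and Isg15, of the 14 genes named in that list, were not tested, so the 0 does not cover them. Neither Psmb10 (0.42, limma adjusted p = 0.40) nor Psme1 (0.11, adjusted p = 0.80) passed.

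Psmb9 and Tap1 lie side by side on chromosome 17 and point away from each other. The 225 bases between their RefSeq starts are shown because Tap1 was called higher in experiment 2 and Psmb9, which was not called, read higher there in every group. They are written 5' to 3' on the strand of Psmb9, with capitals marking, in order, an E2F core, a GC box and a CCAAT box, read on either strand.
Psmb9 to Tap1, chr17:34187331-34187555, minus strand: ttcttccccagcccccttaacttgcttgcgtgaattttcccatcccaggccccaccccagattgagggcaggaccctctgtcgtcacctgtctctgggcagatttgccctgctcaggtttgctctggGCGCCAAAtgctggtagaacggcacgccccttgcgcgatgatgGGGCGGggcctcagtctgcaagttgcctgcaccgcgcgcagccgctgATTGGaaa
The E2F core was found in 0.437% of all windows, and Psmb9 was the member whose window held it. No interferon-stimulated element or gamma-activated sequence, as spelled above, was in these letters.

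**Figure D4:**
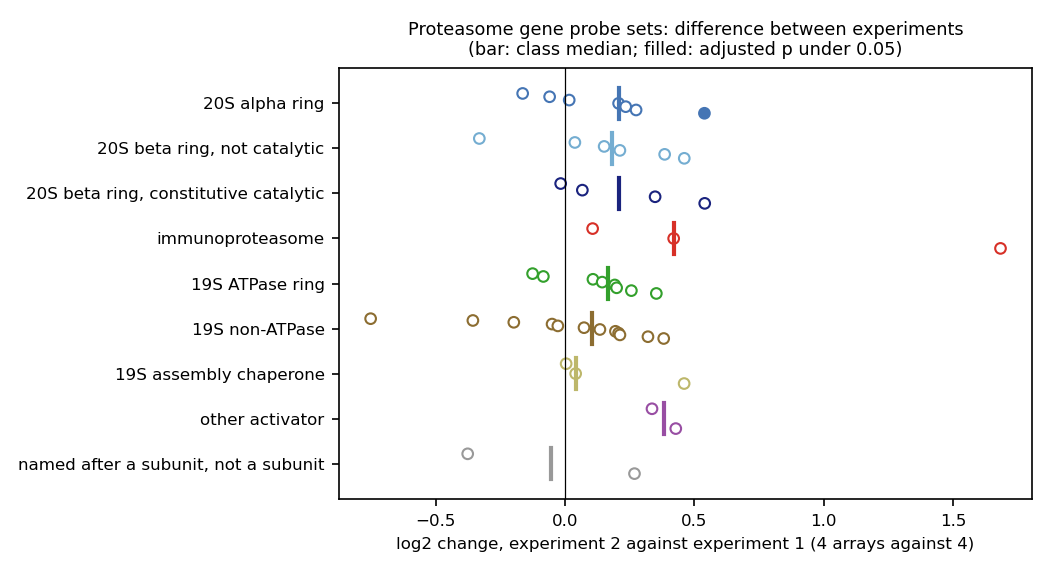
Each circle is a tested member, placed by its log2 change between experiment 2 and experiment 1 (4 arrays against 4) and grouped by role; bars are class medians and the filled circle has an adjusted p under 0.05. Most circles lie to the right of 0 (35 of 47), with Psmb9 (1.68) farthest out and Psma6 (0.54) filled.

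The same arrays were read for other genes of the pathway with TSA exposure, in lists compiled with earlier results known. Of 5 assembly chaperones, Pomp, which matures the 20S core, rose (0.95, SE 0.23, limma adjusted p = 0.0281). It read 2062.4 and 1992.9 in untreated cells, 1175.9 and 1915.2 with AzaC, 2866.2 and 4229.9 with TSA, and 2629.3 and 4025.7 with AzaC/TSA. All TSA-exposed arrays stood above the others. Of 10 shuttles, deubiquitinases and p97 cofactors, Uchl1, a neuronal ubiquitin hydrolase, rose (1.71, adjusted p = 0.0100). Of 7 transcription factors of proteasome genes, Nfe2l2 (1.11, adjusted p = 0.0271) and Stat3 (0.76, adjusted p = 0.0246) rose, and Nfe2l1, which restores proteasome levels after inhibition, gave -0.06. Of 9 tested interferon signalling genes Ifnar1 rose (0.89, adjusted p = 0.0454), and of 9 antigen processing genes H2-K1 rose (1.49, adjusted p = 0.0110). None of 5 ubiquitin-conjugating enzyme genes, or of 3 further 19S and lid-related genes (Sem1, Cops5 and Cops6), passed, against the same 14.5% of all probe sets. No gene of these 7 lists fell. The replicate block changed these calls. With it Psmg3 (-0.97, limma adjusted p = 0.0253), Cops6 (-0.61, 0.0115) and Nfyc (-0.61, 0.0326) fell, and Ube2d2a (0.74, 0.0112), Jak1 (0.61, 0.0425), B2m (0.93, 0.0141) and H2-D1 (2.24, 0.00269) rose, against 23.9% of all probe sets called with the block.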

How the data were processed

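Total RNA of 8 neurosphere samples, 2 per group, was measured on arrays with Affymetrix-type probe sets. The deposited intensity values are linear, with an equal 2% trimmed mean on all arrays, from which scaling by the authors is read; the upstream software is not given in the sources used here. From them, the 66 control probe sets were left out, values under 10% of the trimmed mean (20) were raised to it, log2 was taken, and probe sets with 2 arrays at 25% (50) were kept (64.3%). limma 3.58.1 (R 4.3.3; lmFit, eBayes with trend) fitted 4 group means to all 8 arrays. P-values were two-sided and adjusted by Benjamini-Hochberg over 7987 probe sets. The scripts were tested on simulated data.

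Titles number the experiments, which pairs the arrays; deviations from group means correlated between groups with r from 0.203 to 0.411 (6 pairs of groups). The block is an alternative.

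Members were found by symbol, and several symbols (396 probe sets) or none (1237) were not named. Full values are given for immunoproteasome genes, their counterparts, called members and the 3 largest changes each way. Members and lists were chosen with earlier results of these data known. Alternatives were quantile or median scaling, other floors, an offset, other filters, robust eBayes or no trend, fits of the compared groups alone, the block and each array left out.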

Additional observations from a re-analysis of the deposited data

Results flagged for a closer look

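In 9 of the 47 tested members the AzaC change had 1 sign without TSA and the opposite sign with it, in both experiments. No share over all probe sets is given for this pattern, so the count is not read as a trait of proteasome genes. In 6 of them it was negative without TSA and positive with it. The difference was 0.54 on the log2 scale for Psmc5 (160534_at; -0.13 without TSA and 0.42 with it, SE of the difference 0.39) and 0.48 for Psmc6 (-0.34 and 0.14, SE 0.33). It was 0.46 for Psmd10 (-0.26 and 0.20), 0.44 for Psma4 (-0.33 and 0.11), 0.41 for Psma6 (-0.23 and 0.17) and 0.40 for Psmd6 (-0.29 and 0.10). In the other 3 the order was turned: -0.36 for Psmb3 (0.24 and -0.13), -0.29 for Psmd7 (0.13 and -0.15) and -0.13 for Psmb1 (160875_at; 0.11 and -0.03). For Psmb1 the AzaC change with TSA was only -0.0002 in experiment 2, so its sign there carries little weight. None of the 9 passed limma's test of the interaction (adjusted p = 1.00 for each).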

How the results depend on the processing

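Psme4, Psmb10 and Psmc3ip kept their direction with TSA exposure in all 18 alternatives, and Psmb10 alone of these lost its call, without the filter. The count of 8 members called with TSA exposure was 5 with median centring, 5 with no filter, 3 with no intensity trend, 14 with the replicate block, and 3 to 5 when an array was left out. Against untreated, the count of 2 with TSA was 1 with median centring, no intensity trend or only the groups compared (Psmc3ip) and 1 with no filter (Psmb1, 160875_at, in place of both), 8 with the block, and 0 to 3 with an array left out. The count of 1 with AzaC/TSA was 0 with a floor of 2.5%, a filter of 50% or only the groups compared, 4 with the block, and 0 to 1 with an array left out; with no filter it was Psmb1 in place of Psmc3ip. The AzaC counts and the interaction stayed at 0 in every alternative run.

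Between experiments, the 1 call became 0 with median centring, no filter or no intensity trend, 2 with an offset or robust eBayes, and 0 to 0 with an array left out. The change of Psmb10 minus Psmb7 with TSA was -1.71 in the block permutation (exact p = 0.125) and -1.82 to -1.56 with an array left out. With AzaC it was -0.27 in the block permutation (exact p = 0.125) and -0.61 to 0.13 with an array left out. Psmb9 minus Psmb6 turned to 0.32 (floor 2.5%) and 0.0267 (offset) with TSA, and ran from -0.67 to 0.48 with an array left out. With AzaC it turned to 0.00104 (quantile), 0.0347 (median centring), 0.48 (floor 2.5%) and 0.0177 (offset), and ran from -0.37 to 0.65. Psmb8 minus Psmb5 ran from 0.13 to 0.96 with TSA and from 0.66 to 1.28 with AzaC when an array was left out; with floors of 20% and 2.5% the AzaC value was 0.36 and 1.72. The causes were not tested. A left-out array leaves its group with 1, assumed to vary like the others. In the comparison of experiments that remaining array no longer informs the difference. Leaving out either array of a group therefore gave the same member median, such as 0.165 without untreated 1 or untreated 2. Psmb8 and Psmb9 lay near the floor, which limits what can be read from them.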
